A study of Mus musculus with 24 samples.

Results

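Intergenic intervals far from genes are the accessible sites whose midpoint lies outside every protein-coding gene body of the mouse assembly GRCm38.p6 and more than 50 kb from the nearest end of one. They numbered 53948 of the 299780 intervals deposited for untreated cells (18.0%) and 46459 of the 272268 deposited for inhibitor-treated cells (17.1%), together 100407 of 572048. Position alone chose them, and no accessibility value was used. They are not far from genes of every kind: 9848 (Ctrl) and 8760 (Paused) lay inside the body of a non-coding gene or pseudogene, and 17891 and 14655 were more than 50 kb from any annotated gene.

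The assay was ATAC-seq, which uses Tn5 transposase to cut and tag open chromatin, run on mouse embryonic stem cells (line E14) kept in serum and LIF medium on gelatin. WT cells were compared with Smad2_KO1 and Smad2_KO2, both labelled Smad2 knockouts (KO), either untreated (Ctrl) or after 12 h in 200 nM of the mTOR inhibitor INK128, which the labels describe as in vitro pausing (Paused). Each of the 6 groups had 4 libraries. The labels do not say how the deletion was made, whether each KO line is a single clone, or whether replicates came from separate cultures, so p-values measure the spread between these libraries, which may be technical.

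Embryonic stem cells carry most of their accessible sites away from promoters, at enhancers, insulators and silent regulatory DNA, and a part of these sites lies in gene deserts, long stretches without a coding gene that often flank developmental regulators. Enhancers of such regulators can act over long distances, so the nearest gene names a position here and is not shown to be a target. Smad2 carries Nodal and activin signals to the nucleus, where it binds DNA with partners such as Foxh1. Inhibition of mTOR puts embryonic stem cells into a reversible, slowly growing state that resembles embryonic diapause.

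The files give intervals without letters, so sequences can be shown only where an interval falls on an annotated start. RefSeq start windows of GRCm38.p6 run from 250 bases before to 50 bases after a start. Of 32851 windows, 559 (Ctrl) and 551 (Paused) held part of a far intergenic interval, and all of these belonged to long non-coding RNAs (lncRNAs), since the members exclude the surroundings of coding genes. A whole interval of both tables was held by 122 of the windows considered. Those below are, among these 122, the 2 with the highest Ctrl level and the 5 with a mean of 50 or more whose interval was called in the same direction in both tables, a choice made after the values were seen. Each is written from 5′ to 3′ on the strand of the lncRNA, with the bases of the Ctrl interval in capitals.

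1700030C10Rik: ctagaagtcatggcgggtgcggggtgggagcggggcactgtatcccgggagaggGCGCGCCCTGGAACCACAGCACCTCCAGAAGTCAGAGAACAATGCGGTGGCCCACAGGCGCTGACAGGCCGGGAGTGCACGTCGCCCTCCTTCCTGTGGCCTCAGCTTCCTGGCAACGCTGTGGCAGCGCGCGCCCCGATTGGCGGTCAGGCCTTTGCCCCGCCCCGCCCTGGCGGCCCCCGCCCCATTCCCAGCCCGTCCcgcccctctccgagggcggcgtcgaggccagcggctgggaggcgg
Platr22: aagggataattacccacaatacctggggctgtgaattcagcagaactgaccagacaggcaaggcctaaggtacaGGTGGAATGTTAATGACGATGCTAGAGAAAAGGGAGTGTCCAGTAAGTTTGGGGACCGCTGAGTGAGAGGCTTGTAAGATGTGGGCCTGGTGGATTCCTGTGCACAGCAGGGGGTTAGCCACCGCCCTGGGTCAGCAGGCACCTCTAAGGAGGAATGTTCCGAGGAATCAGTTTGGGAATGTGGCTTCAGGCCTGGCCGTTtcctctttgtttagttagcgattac
1700057H15Rik: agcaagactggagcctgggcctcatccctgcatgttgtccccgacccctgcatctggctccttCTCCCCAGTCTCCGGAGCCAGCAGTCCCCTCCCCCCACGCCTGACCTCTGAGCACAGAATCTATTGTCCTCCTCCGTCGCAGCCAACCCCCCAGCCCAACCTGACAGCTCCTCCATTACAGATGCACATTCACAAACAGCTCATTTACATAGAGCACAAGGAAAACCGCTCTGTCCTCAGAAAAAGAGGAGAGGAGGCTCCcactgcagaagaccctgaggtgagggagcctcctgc
5330434G04Rik: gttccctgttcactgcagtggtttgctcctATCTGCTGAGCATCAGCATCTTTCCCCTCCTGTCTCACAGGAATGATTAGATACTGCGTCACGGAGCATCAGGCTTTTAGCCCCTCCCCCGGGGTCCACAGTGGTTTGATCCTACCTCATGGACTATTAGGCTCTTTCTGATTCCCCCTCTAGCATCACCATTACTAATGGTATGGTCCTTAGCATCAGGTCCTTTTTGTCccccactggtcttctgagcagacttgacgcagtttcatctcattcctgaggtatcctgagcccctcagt
Gm31135: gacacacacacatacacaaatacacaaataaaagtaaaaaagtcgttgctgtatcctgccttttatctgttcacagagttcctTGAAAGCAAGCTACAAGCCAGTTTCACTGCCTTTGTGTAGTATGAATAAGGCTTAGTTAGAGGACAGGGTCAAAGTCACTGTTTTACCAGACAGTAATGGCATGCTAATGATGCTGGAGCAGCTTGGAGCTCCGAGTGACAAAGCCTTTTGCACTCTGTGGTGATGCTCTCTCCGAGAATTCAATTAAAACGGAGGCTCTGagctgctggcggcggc
Gm33302: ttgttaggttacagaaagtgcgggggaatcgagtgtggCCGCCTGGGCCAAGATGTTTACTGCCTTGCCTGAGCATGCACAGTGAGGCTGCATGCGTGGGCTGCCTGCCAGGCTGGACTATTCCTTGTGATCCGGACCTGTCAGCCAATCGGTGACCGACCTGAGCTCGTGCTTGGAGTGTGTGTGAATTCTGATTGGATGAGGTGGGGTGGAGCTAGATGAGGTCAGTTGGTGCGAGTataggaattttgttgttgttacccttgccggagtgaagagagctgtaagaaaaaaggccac
Gm40211: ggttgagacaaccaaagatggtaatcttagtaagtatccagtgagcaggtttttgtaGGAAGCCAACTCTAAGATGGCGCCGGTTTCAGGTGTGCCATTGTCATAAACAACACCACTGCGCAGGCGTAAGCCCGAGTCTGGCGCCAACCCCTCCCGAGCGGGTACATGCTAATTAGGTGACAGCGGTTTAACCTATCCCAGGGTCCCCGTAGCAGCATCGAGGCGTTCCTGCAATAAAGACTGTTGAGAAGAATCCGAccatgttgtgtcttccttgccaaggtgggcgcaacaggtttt

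The 1700030C10Rik window, chr12:20815730-20816029 (minus strand), had 72.7% G or C and 29 CpG dinucleotides, where the median start window of a lncRNA with a far intergenic interval had 50.7% and 5. The Platr22 window, chr1:136695961-136696260 (plus strand), had 52.0% and 6. The other 5 windows lay at chr4:124485910-124486209 (minus strand) for 1700057H15Rik, chrX:105391705-105392004 (minus strand) for 5330434G04Rik, chr8:8484679-8484978 (minus strand) for Gm31135, chr9:97275489-97275788 (plus strand) for Gm33302 and chr4:99569299-99569598 (minus strand) for Gm40211. Their G or C content ran from 45.0% (Gm31135) to 58.7% (1700057H15Rik), and the Gm40211 window held 14 CpG dinucleotides. LncRNA starts without a far intergenic interval had a median of 48.3% and 4 CpG, and starts of protein-coding genes 56.3% and 13.

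Both strands of all windows were searched for the CTCF core motif, ATGCAAAT (the octamer bound by Oct4), TCAAGGTCA (Esrrb), AATCCACA and AATACACA (Foxh1) and GTCTAGAC (Smad). None of these motifs contains another. Among the 7 windows the search found a single match, AATACACA at positions 19 to 26 of Gm31135, in lower case outside the interval. The octamer stood in 22 of the 636 windows with a far intergenic interval in either table (3.46%), in 1.87% of the 11588 lncRNA start windows and in 1.74% of windows of all kinds. AATACACA stood in 9 (1.42%), near the 1.39% of lncRNA windows (0.980% of all kinds). AATCCACA stood in 5 (0.786%, against 1.00% of lncRNA windows and 0.855% of all), TCAAGGTCA in 4 (0.629%, against 0.587% and 0.423%) and the CTCF core in 3 (0.472%, against 0.319% and 0.326%). GTCTAGAC stood in 0 of the 636, where 0.190% of lncRNA windows and 0.213% of all held it. A match describes letters and is not a binding site.

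Values below are normalized reads, the deposited reads per interval scaled by 1 factor per library, and changes are fitted log2 differences of a KO line against WT on log2(value + 1). At the 1700030C10Rik start, the strongest of these windows in Ctrl, libraries read 509, 467, 324 and 457 in WT, 560.0, 477, 638 and 515 in Smad2_KO1 and 543, 559.7, 528 and 538 in Smad2_KO2. WT and KO libraries overlapped, with log2 changes of 0.33 and 0.32 (SE 0.09 each; limma adjusted p = 0.0156 and 0.0185). In Paused the same start gave 0.10 and 0.09 (adjusted p = 0.41 and 0.489). At the Platr22 start, a lncRNA known for its expression in pluripotent cells, Paused libraries read 662, 658, 653 and 681 in WT, 539.7, 535, 529 and 514 in Smad2_KO1 and 493, 557, 543 and 547 in Smad2_KO2. All 8 KO libraries were below all 4 WT libraries, with log2 changes of -0.32 and -0.31 (SE 0.07 each; limma adjusted p = 0.00111 and 0.00179). In Ctrl the changes were -0.09 and -0.18 and did not pass (adjusted p = 0.525 and 0.157).

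The interval at the 5330434G04Rik start fell in both tables. Ctrl libraries there read 91.9, 94.0, 99.7 and 102 in WT, 51.3, 36.0, 48.7 and 49.7 in Smad2_KO1 and 47.1, 49.1, 49.9 and 38.2 in Smad2_KO2, with log2 changes of -1.06 and -1.06 (SE 0.15 each; limma adjusted p = 3.04e-06 and 2.67e-06). No KO library reached the lowest WT library. Paused means were 89.1 ± 12.0 in WT, 38.8 ± 3.29 for Smad2_KO1 and 41.9 ± 6.33 for Smad2_KO2 (each SD, n = 4), with changes of -1.17 and -1.07. The 1700057H15Rik start, 172 kb from Pou3f1, which encodes a POU-domain factor of early neural and epiblast cells, fell from a WT mean of 218 to 160.3 in Smad2_KO1 and 161 in Smad2_KO2 in Ctrl and from a WT mean of 313 to 216 in Smad2_KO1 and 224 in Smad2_KO2 in Paused. The Gm31135 start, 132 kb from the ephrin ligand gene Efnb2, fell from a WT mean of 154 to 121 in Smad2_KO1 and 105 in Smad2_KO2 in Ctrl and from a WT mean of 195 to 130.5 in Smad2_KO1 and 129 in Smad2_KO2 in Paused.

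The interval at the Gm40211 start rose in both tables. It lies 86.9 kb from Foxd3, which encodes a forkhead factor that stem cells need to stay pluripotent. Ctrl libraries read 40.6, 56.4, 53.7 and 42.1 in WT, 112, 84.3, 111 and 92.4 in Smad2_KO1 and 96.2, 72.8, 112 and 103 in Smad2_KO2, with log2 changes of 1.04 and 0.97 (SE 0.15 each; limma adjusted p = 2.60e-06 and 7.75e-06). The lowest KO library stood above the highest WT library. In Paused it rose from a WT mean of 56.2 to 111 in Smad2_KO1 and 95.7 in Smad2_KO2, with log2 changes of 0.97 and 0.77 (SE 0.14 each; limma adjusted p = 4.22e-06 and 1.32e-04). The Gm33302 start, 73.9 kb from Trim42, rose from a WT mean of 54.1 to 91.8 in Smad2_KO1 and 85.6 in Smad2_KO2 in Ctrl and from a WT mean of 49.9 to 92.4 in Smad2_KO1 and 85.7 in Smad2_KO2 in Paused. Over all far intergenic intervals in lncRNA start windows, 494 (Ctrl) and 492 (Paused) were tested. Their median level was 31.4 and 35.1, where all far intergenic intervals had 18.7 and 21.2. In Ctrl 32 were called higher (6.48%, beside 3.95% of all tested intervals) and 27 lower (5.47%, beside 3.2%), and in Paused 52 (10.6%, beside 9.01%) and 32 (6.50%, beside 4.92%).

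Libraries held 12246944 to 15681690 reads in intervals for WT Ctrl and between 11456986 (a WT Paused library) and 20007829 (a Smad2_KO2 Paused library) over all 24. Of these reads, 1287030 to 2379090 per library fell in far intergenic intervals. The knockout label could not be checked from these files: intervals inside the Smad2 gene body numbered 7 in Ctrl, of which 0 were called, and 11 in Paused, of which 2 were called higher and 0 lower, and accessibility there does not test a deletion. In Paused, replicate 2 of Smad2_KO1 and replicate 2 of Smad2_KO2 differed by no more than sampling noise gives (chi-square per degree of freedom 1.00), although their labels name different lines, where libraries of 1 line in a table gave 1.11 to 1.92. Other KO libraries with the same number were also close across lines, at 1.02 for replicate 4 and 1.07 for replicate 1 in Ctrl and 1.03 to 1.07 for replicates 1, 3 and 4 in Paused. Both lines are also compared with the same WT libraries, so a pass in both is not independent replication. These KO libraries were kept as separate samples, and counts of calls are also given without one of them and with KO libraries of 1 replicate number averaged.

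Far intergenic intervals had the lowest median level of the position classes. Their median level, the mean over 12 libraries, was 18.7 normalized reads in Ctrl and 21.2 in Paused, with 10th to 90th percentiles of 8.73 to 70.6 and 9.66 to 80.6. Intervals outside genes and within 50 kb of one had medians of 21.7 and 24.8, those inside gene bodies 20.0 and 23.4, and those within 500 bases of a gene end 133 and 173. The level went down with distance. In Ctrl the medians were 20.6 at 50 to 100 kb, 19.1 at 100 to 250 kb, 17.6 at 250 to 500 kb and 16.0 beyond 500 kb. In Paused they were 23.3, 21.5, 19.7 and 17.7. The strongest far intergenic interval still reached 676 in Ctrl and 811 in Paused. No step in level marked the 50 kb limit: intervals 40 to 50 kb away had medians of 20.6 and 23.4, and those 50 to 60 kb away 21.2 and 24.0.

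**Figure D1:**
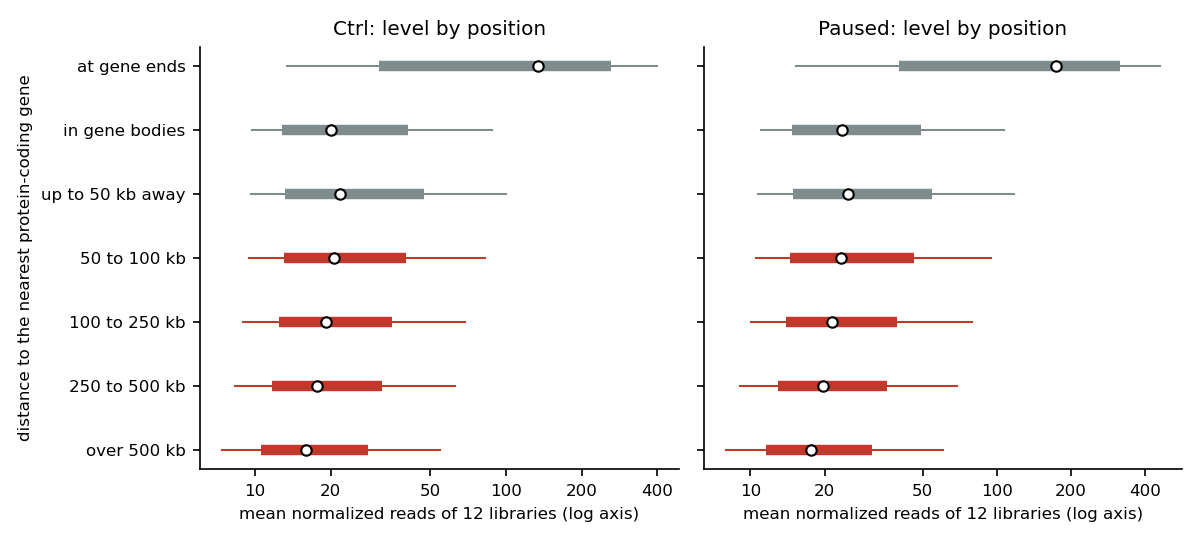
Level of intervals by position, as the mean normalized reads of 12 libraries on a log axis, for Ctrl (left) and Paused (right). Circles are medians, thick lines the middle 50% of intervals and thin lines the 10th to 90th percentiles, with the far intergenic classes in red. With distance the red medians go down, in Ctrl to 16.0 and in Paused to 17.7, and gene ends stand far to the right.

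The share of normalized reads in far intergenic intervals differed little between lines. In Ctrl it was 12.9 ± 0.334% in WT, 13.1 ± 0.480% for Smad2_KO1 and 13.0 ± 0.415% in Smad2_KO2 (each SD, n = 4). In Paused it was 11.5 ± 0.376%, 11.8 ± 0.202% and 11.8 ± 0.226%. The ranges overlapped in both tables, for example 12.6 to 13.3% in WT and 12.5 to 13.4% in Smad2_KO2 in Ctrl. The share at gene ends was 19.6 ± 1.32% in WT, 18.9 ± 1.12% in Smad2_KO1 and 19.2 ± 0.427% in Smad2_KO2 in Ctrl, and 21.9 ± 1.76%, 20.4 ± 0.403% and 20.3 ± 0.638% in Paused.

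To ask how loss of Smad2 relates to far intergenic accessibility, each KO line was compared with WT in a limma fit over all intervals of a table. An interval was tested if 4 or more libraries reached a value of 10, and called if it passed an adjusted p of 0.05 in both KO lines with the same sign. In Ctrl 49150 of the far intergenic intervals (91.1%) were tested. Of these 2055 (4.18%) were called higher and 2085 (4.24%) lower, where 3.95% and 3.2% of all tested intervals were. In Paused 43062 (92.7%) were tested. Here 3876 (9.00%) were called higher and 2501 (5.81%) lower, beside 9.01% and 4.92% of all. Higher calls were thus near the background in both tables, and lower calls stood above it. In Paused the gap in lower calls was not there under DESeq2 size factors (8.74% of far intergenic and 8.87% of all tested intervals). It was small with scaling factors fitted per chromosome (8.33% and 8.11%) and without WT replicate 3 (5.14% and 5.06%). In Ctrl the shares under size factors were 5.85% and 4.82%. Intervals of other classes, weighted to the same levels, were called lower in 2.67% (Ctrl) and 3.49% (Paused) and higher in 4.02% and 9.62%.

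Calls in which all 8 KO libraries also lay on 1 side of all 4 WT libraries numbered 1252 higher and 1407 lower among the 49150 tested in Ctrl. The background, the share of all tested intervals, was 2.49% and 2.18%. In Paused they numbered 2407 and 1652 among 43062 (background 5.52% and 3.17%). Taken line by line in Ctrl, Smad2_KO1 had 3891 higher and 2736 lower far intergenic intervals (background 7.1% and 4.52%), and Smad2_KO2 had 3090 and 3111 (5.83% and 4.85%). In Paused the lines gave 5537 and 3300 (background 12.9% and 6.56%) and 5526 and 3249 (background 12.4% and 6.86%). Between the KO lines limma called 0 in either table, with 1742 (3.54%) and 912 (2.12%) at an unadjusted p under 0.05, beside 3.28% and 1.97% of all tested intervals.

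The balance of higher and lower calls moved with the scaling of libraries. With the deposited scaling the median change of all tested intervals was 0.08 (Ctrl) and 0.12 (Paused) on the log2 scale, and that of far intergenic intervals 0.11 and 0.14. Under DESeq2 size factors these medians were 0.01 and 0.01 for all and 0.04 and 0.03 for far intergenic intervals. The higher share of far intergenic calls went from 49.6% to 33.4% in Ctrl (1440 higher, 2873 lower, background 2.79% and 4.82%) and from 60.8% to 40.7% in Paused (2583 and 3764, background 5.92% and 8.87%). Single libraries also moved the higher counts: without Smad2_KO1 replicate 1, Smad2_KO2 replicate 1 or Smad2_KO2 replicate 2, Ctrl had 1328, 1277 or 1208 (background 2.6%, 2.63% and 2.43%), and without Smad2_KO2 replicate 2 Paused had 2556 (5.95%). Lower calls without that library were 1786 in Ctrl (2.65%) and 1979 in Paused (3.72%). Averaging KO libraries of 1 number gave 4191 higher and 3260 lower in Ctrl (7.71% and 5.34%) and 5872 and 3395 in Paused (13.2% and 6.61%). That fit makes 1 test of the averages against WT and needs no pass in both lines. Its counts therefore follow another rule than the main ones and are not directly comparable with them.

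The WT libraries were not alike at the intervals that fell. Of the Ctrl intervals called lower, 1062 (50.9%) had WT replicates 3 and 4 both above replicates 1 and 2, where 16.1% of all tested far intergenic intervals did. The share was 65.0% below a level of 50 and 29.4% at or above it. In Paused it was 37.6% (941 intervals) against 17.8%. Intervals of the other classes had the same order: 47.2% of their lower calls against 15.2% of all of them in Ctrl, and 27.4% against 16.2% in Paused. Without WT replicates 3 and 4, Ctrl had 740 lower calls, 651 of them among the 2085, and 1024 higher calls (background 1.28% and 2.01%), and Paused had 1671 and 3119 (3.58% and 7.23%). Without WT replicates 1 and 2, the counts were 2201 lower and 2561 higher in Ctrl (3.39% and 4.7%) and 2406 and 3470 in Paused (4.47% and 7.89%). The part of this WT difference in the calls was not tested.

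Lower calls were more frequent among far intergenic intervals than among the others in all 10 deciles of level in both tables, and the gap was widest, in percentage points, at the top. Among the 10% of tested intervals with the highest means, the top decile, 305 of 2573 far intergenic intervals were called lower in Ctrl (11.9%, beside 6.46% of all in that decile and 5.92% of the others). In Paused it was 526 of 2004 (26.2%, beside 18.1% and 17.4%). By class, the others in the top decile were called lower in 8.46% near genes, 7.80% in gene bodies and 1.54% at gene ends in Ctrl, and in 20.8%, 18.8% and 13.5% in Paused. Higher calls there were 78 in Ctrl (3.03%, beside 1.88% of all) and 68 in Paused (3.39%, beside 2.04%). The middle of the distribution hardly differed: in that decile the median change of far intergenic intervals was -0.08 in Ctrl and -0.15 in Paused, and of the others -0.07 and -0.14. The spread was wider. In Ctrl the 10th and 90th percentiles of the change were -0.38 and 0.21 for far intergenic intervals and -0.28 and 0.13 for the others, and in Paused -0.44 and 0.14 against -0.34 and 0.08.

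The excess of lower calls in that decile was present with either pair of WT libraries. All shares by decile use the deposited scaling, and none was computed under another scaling. Without WT replicates 3 and 4, 7.62% of its far intergenic intervals were called lower in Ctrl and 4.09% of the others, and 26.0% and 15.9% in Paused. Without replicates 1 and 2 the shares were 7.93% and 3.97% in Ctrl and 17.4% and 11.3% in Paused. In the lowest decile 0.923% of the far intergenic and 0.493% of the other intervals were called lower in Ctrl, and 1.42% and 0.679% in Paused. Far intergenic levels within the highest decile were lower than those of the others, with medians of 159 and 188 in Ctrl and 194 and 231 in Paused. Intervals of a decile are therefore only broadly matched for level.

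**Figure D2:**
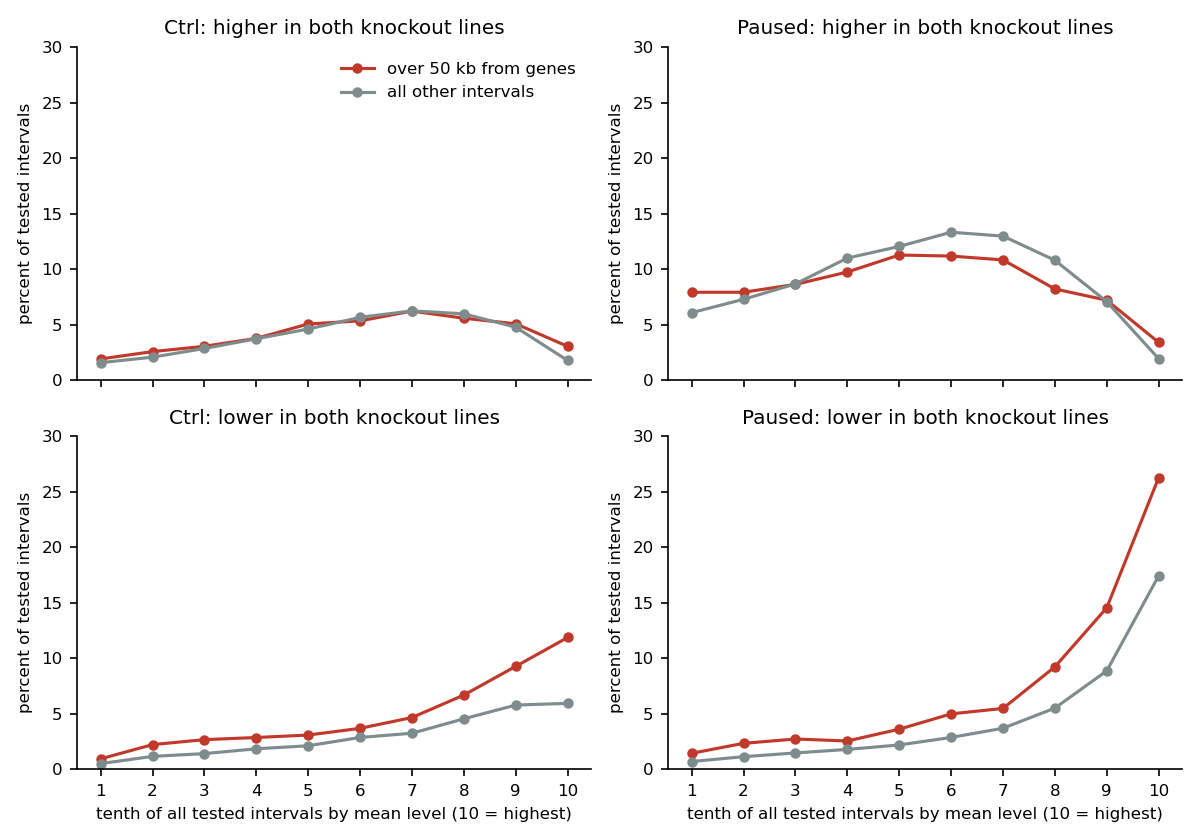
Percent of tested intervals called higher (top) or lower (bottom) in both KO lines, by deciles of the mean level, for Ctrl (left) and Paused (right). Red points are far intergenic intervals and grey points all others; in the highest decile the red points for lower calls stand at 11.9% and 26.2% and the grey ones at 5.92% and 17.4%.

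At equal mean level, over 20 bins, the median change of far intergenic intervals was within 0.02 of that of all others: 0.016 above them in Ctrl and 0.016 below them in Paused (-0.016). Single KO libraries spanned -0.060 to 0.059 (Ctrl) and -0.051 to 0.019 (Paused) around the WT mean, and WT libraries had an SD of 0.014 and 0.0067. The KO libraries of each table thus lay on both sides of 0, and the side largely went with the replicate number. In Ctrl, replicates 1 and 2 were above 0 and replicate 4 below it in both KO lines. In Paused, replicate 1 was above 0 and replicates 2, 3 and 4 below it in both KO lines. WT libraries of the same numbers lay on the same sides, with smaller values in most cases. What same-numbered libraries share was not tested. Without WT replicates 3 and 4 the Ctrl value was -0.00096. Against intervals within 50 kb of a gene the difference was 0.0066 and 0.00029, against gene bodies 0.017 and -0.027, and against gene ends 0.094 and 0.042.

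By distance, higher calls in Ctrl made up 4.90% at 50 to 100 kb, 4.50% at 100 to 250 kb, 3.06% at 250 to 500 kb and 3.05% beyond 500 kb, and in Paused 9.89%, 8.95%, 7.78% and 8.27%. Lower calls were 3.91%, 4.49%, 4.88% and 3.62% in Ctrl and 5.41%, 6.08%, 6.61% and 5.08% in Paused. Just below the 50 kb limit, at 40 to 50 kb, 5.66% were higher and 3.55% lower in Ctrl, and 11.7% and 4.20% in Paused. Just beyond it, at 50 to 60 kb, the shares were 4.73% and 3.76%, and 9.42% and 5.03%. Where 2 called far intergenic intervals were neighbours within 20 kb, 535 of 725 pairs in Ctrl (73.8%) and 1075 of 1503 in Paused (71.5%) had the same direction. Within 50 kb of genes the share was 77.7% and 73.8%, and in gene bodies 76.6% and 74.6%. Such shares also depend on the balance of higher and lower calls in a class, which was not adjusted for.

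The strongest far intergenic interval of both tables lay at chr2:71655979-71656179, 109 kb from Dlx2, a homeobox gene of forebrain neurons, inside the lncRNA gene Gm36909. Ctrl libraries read 707, 769, 636 and 691 in WT, 679.6, 681, 691 and 712 in Smad2_KO1 and 638, 658, 587 and 658 in Smad2_KO2. The groups overlapped, and neither line passed (adjusted p = 0.905 and 0.225). Paused libraries at that site read 956, 884, 852 and 890.0 in WT, 783, 768, 698 and 788 in Smad2_KO1 and 778, 783, 741 and 814 in Smad2_KO2. There every KO library was below every WT library, with log2 changes of -0.24 and -0.20 (SE 0.07 each; limma adjusted p = 0.00957 and 0.0285). This fall did not hold under loess offsets along the level, where the lines' changes no longer averaged below 0 and the smaller of them was -0.03.

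The next strongest in Ctrl lay at chr15:62092888-62093088, 103 kb from Myc, the growth-promoting transcription factor gene, within the lncRNA gene Pvt1. Ctrl libraries read 746, 759, 699 and 769 in WT, 613, 633, 692 and 670.0 in Smad2_KO1 and 586, 654, 550.3 and 657 in Smad2_KO2. All KO libraries were below all WT libraries, yet only Smad2_KO2 passed (log2 changes of -0.19 and -0.28, adjusted p = 0.0878 and 0.00903). In Paused the interval fell from a WT mean of 758 to 617 in Smad2_KO1 and 614 in Smad2_KO2, with log2 changes of -0.30 and -0.31 (SE 0.07 each; limma adjusted p = 0.00321 and 0.00244). Of the 5 strongest in Ctrl, which also lay nearest Rybp, H2az1 and Gnai1, 0 were called. Of the 5 strongest in Paused, those nearest Dlx2, Fam53a, Myc and H2az1 were called lower and the one nearest Ssbp3 was not. These calls depended on the fit: of 27 alternatives each, the call was lost in 16 at H2az1, 8 at Dlx2 (besides the loess fit above), 7 at Fam53a and 2 at Myc. In Ctrl the intervals nearest Myc and H2az1 passed in 6 and 4 alternatives, and in Paused that nearest Ssbp3 in 1.

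Among called intervals with a mean of 50 or more, the largest rise in Ctrl was at chr1:113394372-113394572, in a gap of 3819.7 kb between Dsel, a dermatan sulfate epimerase-like gene, and the neural adhesion gene Cntnap5a. Libraries read 41.7, 39.4, 49.3 and 42.1 in WT, 115, 132, 121 and 95.9 in Smad2_KO1 and 144, 147, 92.4 and 111 in Smad2_KO2. Every KO library was more than 2 times the WT mean of 43.1, with log2 changes of 1.40 and 1.48 (SE 0.14 each; limma adjusted p = 2.71e-09 and 7.46e-10). The other 7 rises lay nearest Kcnj3 (a potassium channel), Gm30733, Tlr4, Smim20, Epha7, Itga11 (a collagen-binding integrin) and Slc1a3, and their means went up 2.10-fold (Epha7, Smad2_KO2) to 2.60-fold (Kcnj3, Smad2_KO1). In all 8 the KO libraries stood above all WT libraries.

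3 of these sites, nearest Tlr4, Epha7 and Slc1a3, were also among the 8 largest rises in Paused. The interval 53.8 kb from Tlr4, the lipopolysaccharide receptor gene, read 49.1, 34.9, 46.0 and 50.7 in WT, 118, 123, 99.3 and 107 in Smad2_KO1 and 113, 114, 79.7 and 88.6 in Smad2_KO2 in Ctrl. In Paused it read 32.4, 54.7, 43.2 and 64.9 in WT, 99.8, 91.5, 118 and 108 in Smad2_KO1 and 96.9, 106, 120.1 and 109 in Smad2_KO2. WT and KO libraries were separate in both tables, with changes of 1.30 and 1.11 in Ctrl and 1.12 and 1.17 in Paused.

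The Epha7 site, chr4:29582134-29582334, stood 615 kb from the ephrin receptor gene in a desert of 2996 kb and 386 kb from any annotated gene. It rose from a WT mean of 30.3 to 64.1 in Smad2_KO1 and 63.7 in Smad2_KO2 in Ctrl and from a WT mean of 31.4 to 76.3 in Smad2_KO1 and 68.5 in Smad2_KO2 in Paused. The Slc1a3 site, in the lncRNA gene Gm31340 and 107 kb from the glial glutamate transporter gene, rose from a WT mean of 31.2 to 65.8 in Smad2_KO1 and 71.9 in Smad2_KO2 in Ctrl and from a WT mean of 32.1 to 70.4 in Smad2_KO1 and 72.5 in Smad2_KO2 in Paused. The tables share no libraries, and the pairs of intervals overlap in position.

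The largest fall in Ctrl was at chr8:79473494-79473694, 74.2 kb from Smad1, which encodes the Smad of the BMP branch of TGF-beta signalling. Libraries read 142, 147, 142 and 113 in WT, 55.6, 56.5, 66.5 and 27.7 in Smad2_KO1 and 63.1, 57.3, 29.8 and 43.3 in Smad2_KO2, with log2 changes of -1.44 and -1.52 (SE 0.18 each; limma adjusted p = 3.76e-07 and 1.41e-07). It recurred in Paused, where the overlapping interval read 135, 106, 105 and 96.7 in WT, 58.9, 39.9, 38.0 and 41.7 in Smad2_KO1 and 41.0, 43.5, 31.4 and 36.1 in Smad2_KO2, with changes of -1.30 and -1.52. In both tables the lowest WT library was above the highest KO library.

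The second fall in Ctrl was at chr15:62436695-62436895, 446 kb from Myc and beyond Pvt1, in the same desert of 1786 kb as the strong site above. Libraries read 83.3, 90.5, 92.0 and 85.2 in WT, 34.2, 29.8, 38.4 and 27.7 in Smad2_KO1 and 35.1, 28.2, 34.0 and 28.2 in Smad2_KO2. WT values were close together there, and the change was -1.41 and -1.46 (adjusted p = 5.07e-08 and 2.45e-08). The site nearest Opa1, a mitochondrial fusion gene, lay in the gap towards Hes1 and fell from a WT mean of 109 to 40.1 in Smad2_KO1 and 40.6 in Smad2_KO2. The other 5 lay nearest Zfp648, Dpp10, Pik3r1 (the PI3-kinase regulatory subunit), Kcnt2 and Nr2f1 (an orphan nuclear receptor of neural development), with WT means 2.23-fold (Nr2f1, against Smad2_KO1) to 2.66-fold (Zfp648, against Smad2_KO2) the KO means. WT libraries differed most at the Kcnt2 site, which read 88.7, 81.5, 182 and 113.

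In Paused the 8 largest rises lay nearest Fam43a, Tsc22d1, Csmd3, Atp10a, Slc1a3, Tlr4, Epha7 and Magi3. At chr14:76276804-76277004, 138 kb from Tsc22d1, a leucine zipper gene induced by TGF-beta, libraries read 27.0, 39.7, 48.5 and 34.4 in WT, 115, 125, 101 and 85.4 in Smad2_KO1 and 105, 104, 85.3 and 78.8 in Smad2_KO2. The groups were separate, with limma adjusted p = 1.14e-08 and 1.95e-07. At the Magi3 site 1 Smad2_KO2 library (33.9) lay inside the WT range of 18.5 to 37.8, while the other 7 rises had no overlap.

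The largest fall in Paused was at chr2:161166682-161166882, 57.7 kb from the chromatin remodeller gene Chd6. Libraries read 100.4, 94.5, 172 and 140.4 in WT, 46.6, 37.1, 33.7 and 48.7 in Smad2_KO1 and 46.9, 41.2, 44.9 and 39.4 in Smad2_KO2, with log2 changes of -1.56 and -1.49 (SE 0.16 each; limma adjusted p = 1.74e-08 and 5.39e-08). KO libraries were close together and WT libraries ranged widely (SD 36.2 in WT, 7.23 in Smad2_KO1 and 3.43 in Smad2_KO2), but the groups did not overlap. The SE rests on a spread shared by all lines, so it does not reflect the wider spread of WT there. The other 7 falls lay nearest Mfap3l, Smad1, Ndufa10 (a subunit of respiratory complex I), G6pd2, Kcna4 (a potassium channel), Unc93a2 and Hs6st1 (a heparan sulfate sulfotransferase). At the Mfap3l site WT libraries read 90.7, 99.8, 211 and 172, with replicates 3 and 4 above the others, and the same order held at the sites nearest Chd6, Ndufa10 and Unc93a2. At Ndufa10 a Smad2_KO2 library (45.7) lay above the lowest WT library (42.9).

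**Figure D3:**
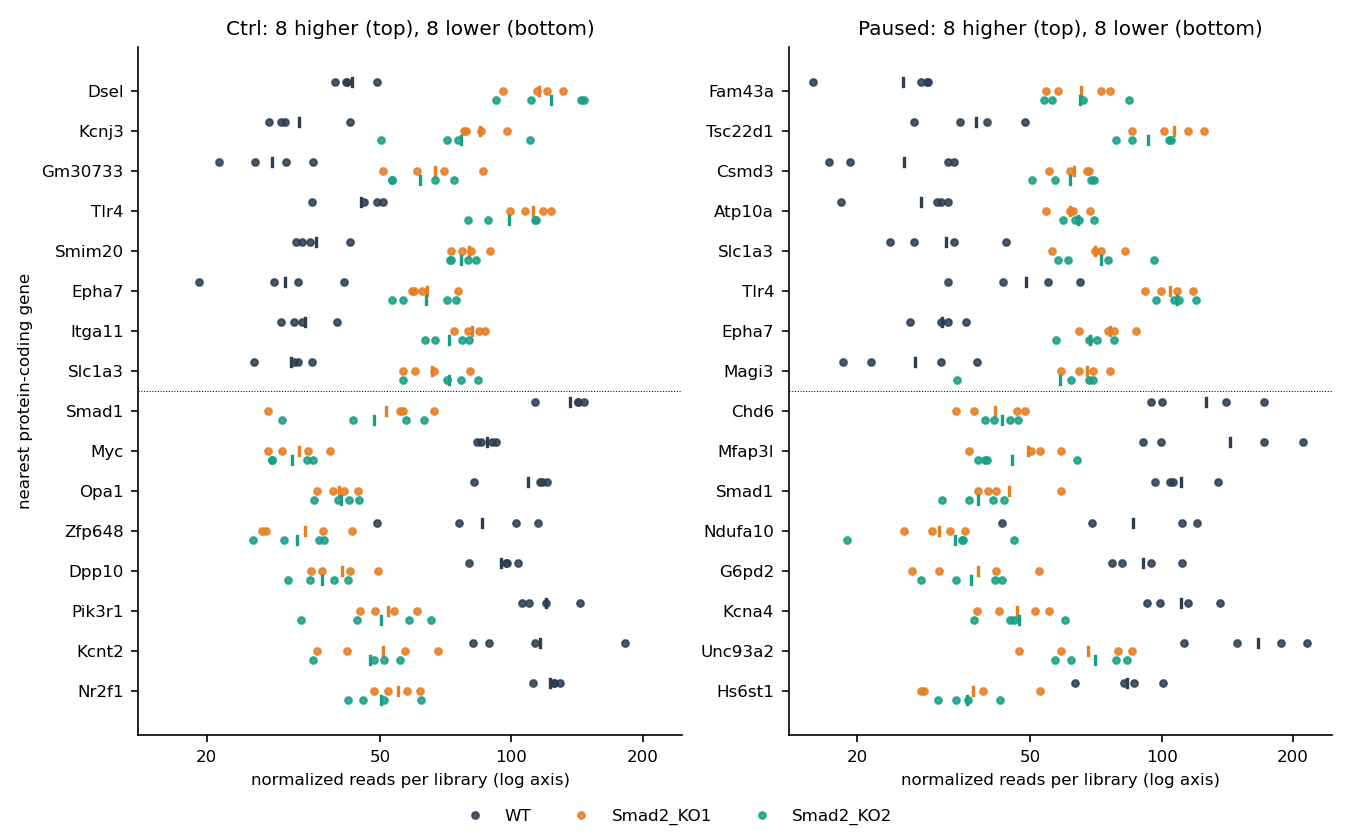
Normalized reads per library on a log axis for the 8 far intergenic intervals with the largest rise (above the dotted line) and the 8 with the largest fall (below it) in Ctrl (left) and Paused (right), named by the nearest protein-coding gene. Dots are libraries and vertical bars the means of 4 (WT, Smad2_KO1, Smad2_KO2); WT dots stay clear of all KO dots except at Magi3 and Ndufa10 in Paused.

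Of the far intergenic intervals tested in both tables and matched one to one (35897), 1814 were called higher in Ctrl and 3197 in Paused, and 904 in both, which is 49.8% of the Ctrl and 28.3% of the Paused calls. Lower calls numbered 1654 and 2363, with 1138 in both (68.8% and 48.2%). In the other classes, 56.7% of Ctrl and 28.2% of Paused higher calls and 65.3% and 38.6% of lower calls were shared. Opposite calls numbered 0. At intervals called lower in Ctrl the median change was -0.77 there and -0.72 in Paused, and at those called higher 0.82 and 0.62. These intervals were chosen by their Ctrl change, so the lesser change in Paused is a description.

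Gaps of over 100 kb between protein-coding genes numbered 2967, and 2427 (Ctrl) and 2392 (Paused) of them held a far intergenic interval. Of the 2967 gaps, 711 were deserts of at least 500 kb, spanning 820 Mb, and 645 of these deserts held a far intergenic interval. The deserts contained 33010 of the Ctrl and 27349 of the Paused intervals. Density went down as gaps became longer. Per Mb of territory over 50 kb from genes it was 96.3 intervals in gaps of 100 to 250 kb, 72.3 at 250 to 500 kb, 53.8 at 500 kb to 1 Mb and 39.3 in longer gaps in Ctrl, and 88.4, 65.8, 46.6 and 31.6 in Paused. Gene bodies had 151 and 138 per Mb, and the 50 kb around genes 138 and 128.

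The share called higher also went down with the length of the gap, from 5.40% in the shortest class over 4.79% and 4.06% to 3.31% in Ctrl. In Paused it was 10.3%, 9.50%, 8.24% and 8.50%. Lower calls had no such order, with 3.51%, 4.40%, 4.68% and 4.19% in Ctrl and 5.13%, 5.99%, 6.01% and 5.88% in Paused. Levels differ along the same axis: the median tested level was 23.0 in the shortest and 19.0 in the longest class (Ctrl), or 25.8 and 20.9 (Paused). Within deserts of 10 or more tested intervals, the median change was above that of all tested intervals in 365 of 611 (Ctrl) and 332 of 597 (Paused), and in 367 and 334 under DESeq2 size factors. These counts were not matched for level. The median change of far intergenic intervals went from 0.30 in the lowest decile of level to -0.08 in the highest in Ctrl. In Paused it went from 0.41 to -0.15.

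**Figure D4:**
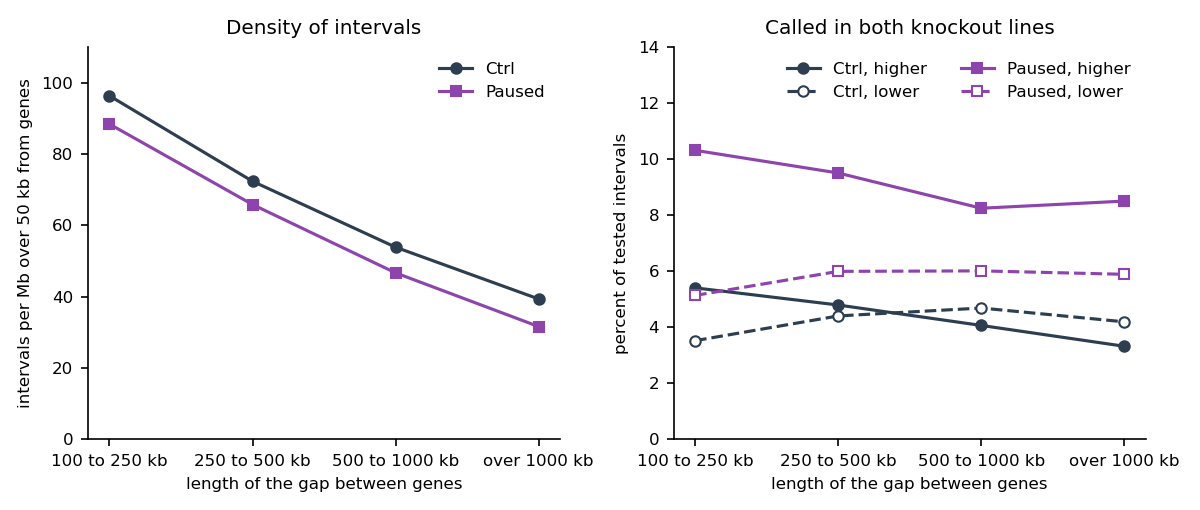
Density of far intergenic intervals per Mb of territory over 50 kb from genes (left) and percent of tested intervals called in both KO lines (right), by the length of the gap between protein-coding genes, for Ctrl and Paused. Density falls from 96.3 to 39.3 (Ctrl) and from 88.4 to 31.6 (Paused), and higher calls (filled symbols) go from 5.40% to 3.31% in Ctrl.

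The desert with the most intervals in Ctrl, 207, lay between Adam6a and Zfp386 on chromosome 12, a stretch of 2501 kb that holds 121 variable segments of the immunoglobulin heavy chain. The gene table does not class these segments as protein-coding, so the stretch is a desert only by that rule. Of its 137 tested intervals 4 were called higher and 0 lower. In Paused it held 150, as did the desert of 3381 kb between Hace1 and Grik2 on chromosome 10. The deserts between Pcdh20 and Pcdh9 and between Cntnap5b and Cdh20 held 200 and 184 in Ctrl. Their densities, 45.0 and 44.0 per Mb of territory over 50 kb from genes, stood beside 44.1 for all deserts in Ctrl. The desert between Mn1 and Cryba4 on chromosome 5 differed: it held 144 intervals in Paused within 789 kb, with a median level of 27.6. Its density was 209 per Mb of such territory, beside 36.5 for all deserts in Paused.

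Some deserts held several calls in 1 direction. Between Tafa5 and Zdhhc25 on chromosome 15, 12 of 47 tested intervals were called higher in Ctrl (25.5%) and 1 lower, with a median change of 0.28. Between Nyap2 and Irs1, the insulin receptor substrate gene, on chromosome 1, 11 of 28 were called lower (39.3%) and 1 higher, with a median change of -0.45. On the X chromosome, 8 of 34 intervals between Slc6a14 and Klhl13 were called lower in Ctrl and 8 of 27 in Paused, with 0 higher in either table. Between Ttc32 and Osr1, a zinc finger gene of kidney development, 4 of 19 and 4 of 18 were called lower. Between Akr1e1 and Klf6 on chromosome 13, 14 of 63 were called lower in Paused (22.2%). Between Rab38 and Tmem135 on chromosome 7, 3 of 16 rose in Ctrl and 4 of 16 in Paused, and between Dthd1 and Nwd2 on chromosome 5, 7 of 23 rose in Paused (30.4%).

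These deserts were picked for their shares, so the shares are a description. The median desert had 2.86% higher and 3.70% lower calls in Ctrl and 7.69% and 5.26% in Paused. In Ctrl 195 of the 611 deserts had 0 higher calls and 149 had 0 lower calls, and in Paused 79 and 117 of 597. By chromosome the median change of far intergenic intervals in Ctrl ran from 0.05 on chromosome 19 to 0.15 on chromosome 5 among autosomes and was 0.01 on the X chromosome, where 2.47% were called higher and 5.50% lower. The other intervals of these chromosomes had Ctrl medians of 0.02, 0.07 and 0.02, so the low values of chromosome 19 and X were not particular to far intergenic intervals. On the X chromosome 27.2% of all Ctrl intervals were far intergenic, and on chromosome 19 10.1%.

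Far intergenic intervals were grouped by their nearest gene with lists of pluripotency, mesendoderm, developmental, neural and other genes, which were drawn up with earlier results of these data known. Of 779 tested intervals nearest a pluripotency factor gene, 43 were called higher (5.52%) and 36 lower (4.62%) in Ctrl, with a median change of 0.11. Of 727 in Paused, 71 (9.77%) and 49 (6.74%) were, with a median of 0.12. All far intergenic intervals had medians of 0.11 and 0.14, with 4.18% and 4.24% called in Ctrl and 9.00% and 5.81% in Paused. Of all tested intervals, 3.95% and 3.2% were called in Ctrl and 9.01% and 4.92% in Paused. Near Nodal pathway and mesendoderm genes 14 of 299 rose (4.68%) and 8 fell (2.68%) in Ctrl, with a median of 0.14. In Paused 27 of 261 rose (10.3%) and 9 fell (3.45%), with a median of 0.17. Near developmental transcription factor genes 86 of 1698 rose (5.06%) and 95 fell (5.59%) in Ctrl, with a median of 0.08. In Paused 134 of 1546 rose (8.67%) and 110 fell (7.12%), with a median of 0.12. Near neural adhesion and synapse genes the counts were 109 and 109 of 3117 (3.50% each) in Ctrl, with a median of 0.15. In Paused they were 208 (8.37%) and 110 (4.43%) of 2485, with a median of 0.17. Near receptor cluster genes they were 9 and 2 of 163, and 9 and 5 of 135, and near lipid genes 0 and 1 of 38, and 3 and 2 of 31.

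Within the pluripotency list, Tbx3, which encodes a T-box factor of naive stem cells, had 12 of 70 tested intervals higher and 0 lower in Ctrl, and 11 of 75 higher and 1 lower in Paused. Foxd3 had 3 of 25 higher and 0 lower in Ctrl, and 9 of 20 and 0 in Paused. Sox2, a core pluripotency factor gene, had 7 of 118 higher and 4 lower in Ctrl, and 14 of 121 and 3 in Paused, and Myc had 6 of 113 and 10, and 6 of 95 and 12. Of all tested intervals, 3.95% were called higher and 3.2% lower in Ctrl, and 9.01% and 4.92% in Paused. These 4 genes were singled out after their counts were seen, so the counts are a description.

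The strongest far intergenic interval near Sox2, starting at position 34761337 of chromosome 3, read 540.5, 483, 471 and 440.0 in WT, 472, 417, 501 and 513 in Smad2_KO1 and 469, 422, 477 and 484 in Smad2_KO2 in Ctrl. It did not pass, with changes of -0.02 and -0.06. Farther out, 415 kb from Sox2, an interval starting at 35066934 fell and read 24.6, 26.0, 58.0 and 79.8 in WT, 19.7, 13.4, 14.1 and 12.7 in Smad2_KO1 and 12.0, 15.5, 14.9 and 15.1 in Smad2_KO2, with WT replicates 3 and 4 far above 1 and 2. The highest rise near Tbx3 by level, starting at 119579896 of chromosome 5, read 79.0, 51.1, 71.2 and 78.7 in WT, 119, 108, 111 and 85.5 in Smad2_KO1 and 108, 87.4, 109 and 105 in Smad2_KO2, and its lowest KO library stood just above its highest WT library.

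Near Eomes, a T-box gene of mesendoderm that responds to Nodal, the strongest interval called lower in Ctrl started at 118390038 of chromosome 9 and read 189, 193, 214 and 216 in WT, 128, 125, 128 and 111 in Smad2_KO1 and 122, 127, 133 and 141 in Smad2_KO2. WT libraries were well above all KO libraries. In Paused an Eomes neighbour starting at 118403524 rose and read 10.8, 13.9, 12.9 and 5.30 in WT, 26.6, 23.6, 27.6 and 21.9 in Smad2_KO1 and 24.0, 33.8, 31.4 and 20.8 in Smad2_KO2, so intervals near 1 gene moved both ways. The strongest interval near Nr5a2, an orphan nuclear receptor gene of pluripotent cells, fell in Paused from a WT mean of 461 to 371 in Smad2_KO1 and 376 in Smad2_KO2. At the overlapping Ctrl interval the changes were -0.06 and -0.13 and did not pass (adjusted p = 0.727 and 0.37). Of the tested far intergenic intervals nearest Nr5a2, 1 of 78 was called higher and 2 lower in Ctrl, and 10 of 71 higher and 5 lower in Paused. The shares of all tested intervals were 3.95% and 3.2% in Ctrl, and 9.01% and 4.92% in Paused.

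An interval 126 kb from Bmp4, the BMP ligand gene, fell from a WT mean of 37.4 to 9.38 in Smad2_KO1 and 7.68 in Smad2_KO2 in Ctrl and from a WT mean of 32.3 to 9.67 in Smad2_KO1 and 11.2 in Smad2_KO2 in Paused, with Ctrl WT libraries at 22.4, 17.0, 66.8 and 43.1. In the desert between Hace1 and Grik2, 1026 kb from that kainate receptor gene, an interval read 39.5, 34.0, 71.2 and 99.2 in WT, 12.8, 19.5, 15.0 and 13.9 in Smad2_KO1 and 25.1, 21.8, 14.9 and 6.04 in Smad2_KO2 in Ctrl. The highest KO library was below the lowest WT library. It fell from a WT mean of 61.1 to 13.4 in Smad2_KO1 and 17.9 in Smad2_KO2 in Paused. At both sites WT replicates 3 and 4 exceeded 1 and 2 in both tables, and at the Bmp4 site in Paused the lowest WT library lay inside the KO range. An interval 292 kb from Id2, an inhibitor of helix-loop-helix factors, rose from a WT mean of 7.10 to 22.1 in Smad2_KO1 and 20.9 in Smad2_KO2 in Ctrl.

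To ask how mTOR inhibition relates to these sites in WT cells, each Ctrl interval was paired with the Paused interval sharing 50% or more of both, and reads were expressed as CPM over the paired intervals. The tables were normalized separately and have different intervals, so no test was run across them. Matching kept 38472 far intergenic intervals, 71.3% of those in Ctrl and 82.8% of those in Paused, with 177354 others. The intervals without a match were weak, with a median of 11.8 normalized reads in Ctrl, and what the treatment does there is not covered.

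The median log2 ratio of Paused to Ctrl was -0.17 in far intergenic intervals, -0.09 outside genes within 50 kb, -0.08 in gene bodies and 0.10 at gene ends. At equal mean level far intergenic intervals were 0.07 below all others (-0.070), and from -0.078 to -0.054 with any 1 library standing for its treatment. Far intergenic intervals took 12.5, 12.8, 13.1 and 12.4% of the matched reads in the Ctrl libraries and 11.3, 11.9, 12.0 and 11.3% in the Paused libraries. All 4 Paused shares were below all 4 Ctrl shares. The treatment cannot be told apart here from the separate interval sets and normalization of the tables.

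The difference was found at every level. In the lowest decile of matched intervals the median log2 ratio was -0.23 for far intergenic and -0.19 for the other intervals, and in the highest decile -0.04 and 0.10. Gene ends reached 0.13 in the highest decile. All 4 Paused libraries were below all 4 Ctrl libraries at 5548 far intergenic intervals (14.4%) and above them at 1990 (5.17%), where 10.9% and 7.09% of all matched intervals were. At 5 CPM or more, 1212 of 6023 far intergenic intervals (20.1%) were below and 727 (12.1%) above, beside 10.9% and 14.8% of all matched intervals at that level.

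**Figure D5:**
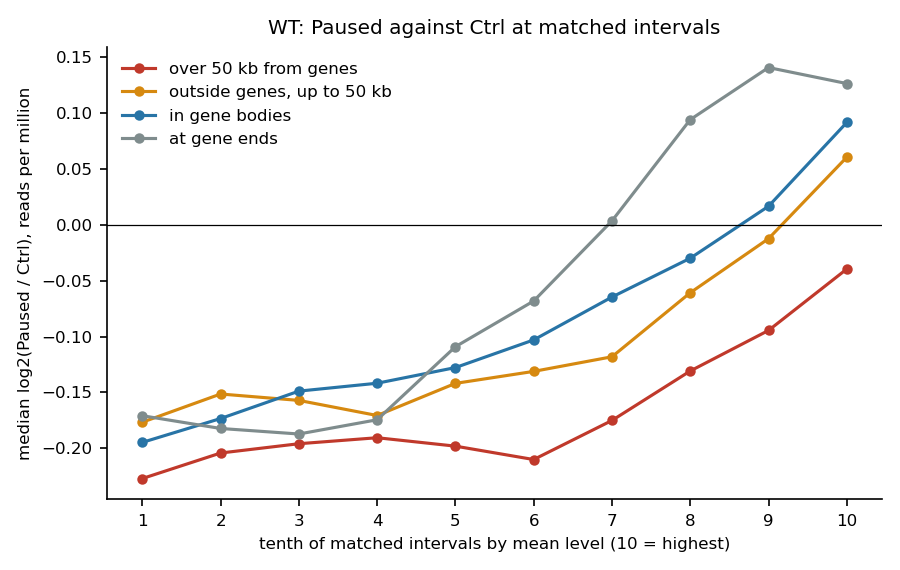
Median log2 ratio of Paused to Ctrl in WT cells, in CPM, by deciles of the mean level of matched intervals and by position class. The far intergenic line (red) runs from -0.23 to -0.04 and is below the other classes in every decile.

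The largest WT differences at 5 CPM or more without overlap, picked after the values were seen, were larger downward. An interval 52.6 kb from Aebp2, which encodes a cofactor of Polycomb repressive complex 2, had CPM values of 9.80, 9.02, 9.06 and 9.05 in Ctrl and 1.40, 2.45, 1.65 and 1.62 in Paused. Every Paused library had less than 1 in 3 of the lowest Ctrl value, with a ratio of means of 5.18 in favour of Ctrl. The next lay nearest Ppp6c, Adgrl3, Pdha2 and Pcsk1, with Ctrl means 3.72, 3.62, 3.12 and 2.97 times the Paused means. The Adgrl3 site stood 1805 kb from that adhesion receptor gene.

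Upward, an interval 407 kb from Cd83, in the gap towards Jarid2, which encodes another Polycomb cofactor, had CPM values of 2.66, 2.00, 2.31 and 2.57 in Ctrl and 9.16, 8.53, 6.83 and 8.02 in Paused. Paused and Ctrl libraries were widely separate, with a ratio of means of 3.41. The others lay nearest Prl5a1 in the gap towards Sox4, Atp23, Sox6 and Foxq1, at ratios of 3.23, 3.06, 2.94 and 2.93. Within the Paused table the sites nearest Cd83, Prl5a1 and Foxq1 were called lower in the KO lines, with mean log2 changes of -0.49, -0.42 and -0.58, and in Ctrl they were not called. The site nearest Atp23 was called higher in both tables and the one nearest Sox6 in neither. Of the 5 sites lower in Paused, those nearest Adgrl3 and Pdha2 were called lower and that nearest Pcsk1 higher in the KO lines in Paused. These sites were chosen by their Paused WT values, which also enter the KO comparison in that table, so their KO calls are a description.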

How the data were processed

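The members, gene lists and comparisons were chosen with earlier results of these data known. Per the submitters' processing notes, the authors used FastQC, Trim Galore, Bowtie2 2.4.1, MACS3 3.0.3 and DiffBind 3.16.0 with the build mm10. Duplicate handling and any shift of reads for the Tn5 cut are not given in the sources used here. The deposited values are a normalized signal, reads in an interval over a factor common to its library, which was recovered from the values (whole multiples of 1 step per column). In 4 of the 24 columns the step is so near 1 that scaled reads and rounding are hard to tell apart. The tables' deposited log2 fold and p-value columns, which the authors computed, were not used.

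Positions came from a RefSeq gene table of GRCm38.p6 with 21883 protein-coding genes. Intervals with a value of 10 or more in at least 4 of 12 libraries were fitted with limma 3.58.1 (R 4.3.3; log2(value + 1), trend, Benjamini-Hochberg over all tested intervals), within each table. All lines shared 1 estimate of the spread. WT libraries differed more among themselves, with a median chi-square per degree of freedom of 1.57 (Ctrl) and 1.61 (Paused). In the KO lines it was 1.19 to 1.29. SEs and p-values of KO against WT do not reflect that difference. The script was tested on simulated data. Named intervals are the 5 strongest, the 8 largest rises and the 8 largest falls among calls with a mean of 50 or more, taken by the smaller change of the KO lines, and called neighbours of the listed genes. Named deserts are the 5 with the most members and the 5 with the highest share called in each direction among those with 10 or more tested. Some items that these rules name are not reported here. Alternatives were other scalings, filters, pseudocounts, edgeR 4.0.16 and DESeq2 1.42.0 on recovered reads, left-out libraries, a distance of 100 kb and genes of any kind. Replicate numbers were not treated as pairs in the main fit, since the correlation of deviations was not over 0.1 for every same-numbered pair (mean 0.027 in Ctrl and 0.052 in Paused). Pairs with different numbers had means of -0.0089 and -0.017. Same-numbered libraries of the KO lines were closer, with correlations between 0.0082 and 0.109 for Ctrl and between 0.034 and 0.187 for Paused. The main SEs and p-values do not allow for this likeness by number, and a fit with a replicate block is given below. Depth limits precision: the median far intergenic level was 18.7 (Ctrl) and 21.2 (Paused) normalized reads per library. Sequences of intervals away from annotated starts were not analysed here.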

Additional observations from a re-analysis of the deposited data

Results flagged for a closer look

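Within groups of 4 libraries, the named intervals were searched for a library far from the other 3. The search covered 144 groups, of which 7 held one, and chance alone is held to flag about 1 in 20 (7.2 here). In Ctrl, Smad2_KO1 replicate 4 read 680.4 at the strong interval nearest Rybp, where the other 3 read 595.0 to 607.6. WT replicate 3 read 42.71 at the interval nearest Kcnj3 (others 27.8 to 30.2) and 82.14 at the one nearest Opa1 (others 116.5 to 120.9). WT replicate 4 read 113.2 at the interval nearest Smad1 (others 142.1 to 146.9). In Paused, WT replicate 4 read 15.89 at the interval nearest Fam43a (others 28.1 to 29.1) and WT replicate 1 read 18.35 at the one nearest Atp10a (others 30.5 to 32.4). Smad2_KO2 replicate 3 read 63.99 at the interval nearest Mfap3l (others 38.0 to 39.8). At the rises and falls among these, all KO libraries still lay on 1 side of all WT libraries.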

How the results depend on the processing

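Shares in parentheses are those of all tested intervals under the same setting. With the 8 KO libraries as 1 group or averaged by number, 1 test against WT replaced the rule of a pass in both lines. Those counts are therefore not directly comparable with the main ones. Of the Ctrl counts, higher calls (2055) became 1266 (2.62%) under loess offsets along the level, 676 (1.36%) with DESeq2 on recovered reads, 5898 (10.8%) with the 8 KO libraries as 1 group, 4191 (7.71%) with KO libraries of 1 number averaged, 1024 (2.01%) without WT replicates 3 and 4, 423 (0.754%) at an absolute log2 change of 1 or more, 1238 (3.95%) beyond 100 kb and 603 (3.95%) away from genes of any kind. Lower calls (2085) became 4041 (6.82%), 3260 (5.34%), 740 (1.28%), 583 (0.758%) and 676 (3.2%) under 1 KO group, averaging, the left-out WT pair, the minimum change and genes of any kind. In Paused, higher calls (3876) became 2583 (5.92%) under size factors, 1722 (4.54%) under loess, 1675 (3.96%) with DESeq2, 8464 (18.9%) with 1 KO group, 5872 (13.2%) averaged, 1037 (2.05%) at the minimum change, 2372 (9.01%) beyond 100 kb and 1124 (9.01%) for genes of any kind. Lower calls there (2501) became 3764 (8.87%) under size factors, and 4463 (9.82%), 457 (0.603%) and 787 (4.92%) under 1 KO group, the minimum change and genes of any kind. The equal-level difference moved to -0.000958 (Ctrl) and -0.0251 (Paused) without WT replicates 3 and 4 and to -0.0271 (Paused) beyond 100 kb. The causes were not tested, other than that fewer intervals enter at the larger distances.

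Leaving out 1 library at a time gave 1208 to 2307 higher (2.43 to 4.33%) and 1399 to 2129 lower (2.27 to 3.30%) in Ctrl, 2556 to 4308 (5.95 to 9.95%) and 1939 to 2606 (3.52 to 5.55%) in Paused, equal-level differences of 0.0053 to 0.0268 and -0.0229 to -0.0114, and a WT treatment difference of -0.0745 to -0.0630. A fit with a replicate block gave counts of 2377 (4.49%) and 2269 (3.48%) in Ctrl and 4535 (10.4%) and 2826 (5.81%) in Paused, with a treatment difference of -0.0711. With each KO line fitted with WT alone, Ctrl had 1379 higher (2.73%) and 2056 lower calls (3.1%). Paused then had 2748 higher (6.39%) and 2312 lower (4.27%). The 16 named rises and 16 named falls kept their call and direction in 432 of 432 refits each. They were picked for the largest called changes in these same libraries, so this is a description. The 10 strongest intervals were called, or not called, as in the main fit in 225 of 270 refits. In 33, at 4 of the Paused intervals, the call was lost, and in 11 an interval passed that had not. The remaining refit was of the strongest Paused interval, nearest Dlx2: called lower in the lines, its mean change turned above 0 under loess offsets, with the smaller change of the lines at -0.0261. Depth limits weak intervals: far intergenic levels are low, so small changes there may pass unseen.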
